A study of Mus musculus with 32 samples.

Results

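The genes described here encode the proteasome, the protease complex that degrades ubiquitin-tagged proteins, and its cytokine-inducible form, the immunoproteasome. They were chosen by name: an array gene name had to start with Psma, Psmb, Psmc, Psmd, Psme or Psmg followed by a digit, and its probe had to be well above background on at least 4 arrays, with the brightest probe standing for the gene. Of 48 such names on the array, 47 passed, among 19226 genes tested in all. Psmb11, a subunit of the thymus, was left out because its better probe was above background on 3 arrays, and the member nearest to the limit on the other side was Psmc3ip with 26 arrays. The other 46 members were above background on all 32 arrays. Psmc3ip carries a proteasome-like name but encodes a factor of meiotic recombination, so it is counted as a member and not as a subunit.

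The proteasome consists of a barrel, the 20S core, with regulators on its ends. The core is built from rings of alpha subunits (Psma genes) around rings of beta subunits (Psmb genes), and the proteolytic sites lie in the beta subunits Psmb5, Psmb6 and Psmb7. Interferon gamma and related signals replace these during assembly by Psmb8 (LMP7), Psmb9 (LMP2) and Psmb10 (MECL-1), which change the peptides that reach MHC class I molecules. Psme1 and Psme2 form the PA28 ring, an activator that is also induced by interferon gamma. The 19S regulatory particle, which binds and unfolds ubiquitinated proteins, consists of ATPases (Psmc genes) and non-ATPase subunits (Psmd genes), and Psmg genes with Psmd5, Psmd9 and Psmd10 encode assembly chaperones. Accordingly, Psmb8, Psmb9, Psmb10, Psme1 and Psme2 are called the inducible set here. They were set beside the 41 other subunits and factors, called constitutive by name alone, with Psma8 and Psme3 among them.

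The series asks about the role of the transcription factor E2F1 in the innate response to lipopolysaccharide (LPS), a bacterial endotoxin that activates Toll-like receptor signalling, and RNA was measured on 1 array per mouse. Saline-treated mice, labelled with a time of 20 h, comprised 6 wild types and 6 knockouts, LPS-treated mice comprised 4 wild types and 4 knockouts at 6 h, and 6 of each genotype were taken 20 h after LPS. Wild types are labelled B6x126 F2 and knockouts B6;129 with the allele E2F1-/-, so strain and genotype cannot be told apart. Dose, sex and the deleted part of E2f1 are not given in the sources used here, and no saline group was taken at 6 h. The same saline mice serve both LPS comparisons of a genotype, and the p-values measure the spread between mice.

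Levels are given as log2 signal minus that of the array's 75th percentile, and a change is a difference of 2 such levels with its moderated standard error (SE) from limma, called at a Benjamini-Hochberg adjusted p under 0.05 over all 19226 genes. The 75th percentile ranged from 281 to 1144 intensity units, and 20203 to 28891 spots per array were well above background. Labels name liver whereas the extraction protocol names lung. Alb, the albumin gene of hepatocytes, lay between 9.18 and 11.23 on all arrays, and the 3 of 6 lung epithelial markers that were tested had summed levels between −3.85 and 1.29, with changes given beside the other markers. E2f1 itself was read by a 3′ probe (median level −3.36 in wild type and −3.10 in knockouts on saline, −3.89 and −2.27 at 6 h, −5.81 and −2.09 at 20 h, where 3 of 5 wild-type arrays with a value were above background). The probe is no test of the deletion because the deleted part is unknown. In these whole-tissue samples, fewer cells of a type and less RNA per cell cannot be told apart.

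Among the knockouts, 2 libraries went against their labels. On each array, the median of the inducible genes was taken relative to the wild-type saline means. It was 2.45 in the library labelled KO saline replicate 1, against −0.72 to 0.08 in the other 5 of that group. In the library labelled KO LPS 6 h replicate 1 it was −0.03, against 1.68 to 2.76 in the other 3. Neutrophil markers moved with it: their summed level (5 of 6 markers tested) was 8.32 and 3.11 in these 2 libraries, whereas the medians of their groups were 0.59 and 7.49. The main knockout results are therefore also given without them. These libraries were singled out by the inducible genes themselves. P-values of those genes without them are therefore descriptions and no independent support. All 6 groups share 1 estimate of the spread per gene, so these libraries also enter the standard errors and p-values of wild type. Of the class I peptide pathway genes listed below, 7 rose in wild type at 20 h with all libraries and 9 without these 2. With all libraries 16.3% of all genes rose there, and the share without these 2 is not given here. Changes after LPS in wild type are otherwise given with all libraries unless stated.

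The promoters of Psmb8, Psmb9 and Psmb10 are shown beside those of Psmb5 and Psmb6, since these genes occupy corresponding places in the core and differed in their response to LPS. Sequences are the 250 bases before the annotated start in RefSeq (GRCm38.p6), 5′ to 3′ on the strand of the gene. Capitals mark matches to a searched motif on either strand. No window of Psmb7 was in the table.
Psmb8, chr17:34197945-34198194, plus strand: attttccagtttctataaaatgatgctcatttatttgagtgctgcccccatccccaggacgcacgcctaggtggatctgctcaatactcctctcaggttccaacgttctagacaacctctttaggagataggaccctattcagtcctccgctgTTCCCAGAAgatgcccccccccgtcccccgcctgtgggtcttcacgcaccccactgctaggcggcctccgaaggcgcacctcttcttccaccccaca
Psmb9, chr17:34187331-34187580, minus strand: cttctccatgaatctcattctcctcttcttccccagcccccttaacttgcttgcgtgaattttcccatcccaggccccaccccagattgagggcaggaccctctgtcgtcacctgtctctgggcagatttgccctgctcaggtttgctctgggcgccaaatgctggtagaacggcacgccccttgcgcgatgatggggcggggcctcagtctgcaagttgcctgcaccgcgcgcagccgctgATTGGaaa
Psmb10, chr8:105938393-105938642, minus strand: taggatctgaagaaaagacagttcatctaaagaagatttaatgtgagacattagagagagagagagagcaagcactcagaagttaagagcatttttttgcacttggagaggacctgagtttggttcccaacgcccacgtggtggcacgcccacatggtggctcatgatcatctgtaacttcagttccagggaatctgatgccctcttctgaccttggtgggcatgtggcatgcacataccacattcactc
Psmb5, chr14:54617996-54618245, minus strand: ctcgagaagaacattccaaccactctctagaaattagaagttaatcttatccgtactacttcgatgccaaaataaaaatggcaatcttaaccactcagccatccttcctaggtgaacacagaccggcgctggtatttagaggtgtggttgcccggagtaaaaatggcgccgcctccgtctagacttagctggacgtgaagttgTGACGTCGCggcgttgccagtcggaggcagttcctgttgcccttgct
Psmb6, chr11:70525107-70525356, plus strand: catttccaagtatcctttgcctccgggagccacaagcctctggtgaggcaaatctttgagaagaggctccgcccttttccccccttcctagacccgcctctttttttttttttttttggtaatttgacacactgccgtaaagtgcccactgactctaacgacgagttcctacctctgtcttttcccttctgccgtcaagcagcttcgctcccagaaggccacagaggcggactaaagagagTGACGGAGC

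The motifs searched on both strands were TTCNNNGAA (gamma-activated site), TGACNNNGC (antioxidant response element, the kind used by NFE2L1 and NFE2L2) and CCAAT. The interferon-stimulated response element was taken as GAAA, any 2 bases and GAAA, and the NF-kB site as GGGA, any 2 bases and TTCC. The capitals in Psmb8 are a gamma-activated site, TTCCCAGAA, whose first base lies 97 bases before the start. In Psmb5 and Psmb6 they are antioxidant response elements beginning 47 and 9 bases before the start, and in Psmb9 a reversed CCAAT box, ATTGG, begins 8 bases before it. Psmb10 had no match in this window. Of 39 members with a window, 5 were inducible genes. The gamma-activated site occurred in 1 of these 5, in 1 of the other 34 and in 8.13% of windows of 27025 genes, and the antioxidant response element in 0 of 5, 5 of 34 and 11.5%. The interferon-stimulated response element occurred in 0 of 5, 3 of 34 and 3.46%, NF-kB in 0 of 5, 1 of 34 and 1.36%, and CCAAT in 1 of 5, 13 of 34 and 37.5%. These counts are a description of letters in short windows. The Psmb9 window, with its 50 bases after the start, shares 275 of 300 bases with that of Tap1 on the opposite strand.

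All 5 inducible genes rose in wild-type liver at 6 h after LPS. The catalytic subunits rose about 4- to 5-fold and the PA28 genes about 2-fold, and in each case the 4 LPS arrays lay above all 6 saline arrays. At 20 h Psmb8, Psmb10 and Psme1 were still higher than on saline, whereas Psmb9 and Psme2 did not pass the test. Over the 47 members, 9 rose and 3 fell at 6 h, where 12.4% of all genes rose and 16% fell.

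Psmb8, on chromosome 17 (array probe at chr17:34337828-34338152, mm9), encodes the inducible counterpart of Psmb5. Its level on saline in wild type was 2.63 at the lowest, 3.25 at the median and 3.48 at the highest, and the 6 h arrays read 4.70, 5.68, 4.99 and 5.95. At 20 h it ranged from 4.31 to 5.67 with a median of 5.01, still without overlap with saline. At 6 h Psmb8 rose by 2.20 ± 0.49 (adjusted p = 0.00109, 4.58-fold), and at 20 h the rise was 1.89 ± 0.44 (adjusted p = 0.00114, 3.72-fold). A further Psmb8 probe gave 2.23 and 2.05.

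Psmb10 (chr8:108459677-108459736, mm9) takes the place of Psmb7. Its wild-type saline level ran from 3.92 through a median of 4.67 to 5.05, and the 6 h arrays read 6.41, 7.10, 6.73 and 7.65. At 20 h the lowest, median and highest values were 5.42, 6.29 and 7.09. No LPS array at either time fell into the saline range. Psmb10 had the largest rise of the inducible set at 6 h, 2.37 ± 0.51 (adjusted p = 0.000884, 5.15-fold), and rose by 1.71 ± 0.46 at 20 h (adjusted p = 0.0044, 3.27-fold).

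Psmb9 (chr17:34319174-34319233, mm9), the counterpart of Psmb6 and a neighbour of Psmb8 in the MHC region, followed another course. Its wild-type saline level was 2.37 to 3.37 with a median of 3.10, and the 6 h arrays read 4.35, 5.57, 4.66 and 5.46. At 20 h the 6 arrays split widely, from 1.92 through a median of 3.52 to 4.54, and overlapped saline at both ends. Psmb9 rose by 2.10 ± 0.61 at 6 h (adjusted p = 0.00936, 4.29-fold). The difference from saline was 0.43 ± 0.54 at 20 h (adjusted p = 0.571), and between 6 h and 20 h Psmb9 fell by 1.67 on the log2 scale (SE 0.61, adjusted p = 0.0326). That fall depended on the scaling: it was −1.31 under quantile normalization, −1.57 under median centring, −1.22 under normexp with quantile and −1.26 in the authors' deposited table, and was called under none of these.

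Psme1 and Psme2 encode the alpha and beta subunits of PA28 and lie next to each other on chromosome 14 (chr14:56200194-56200253 and chr14:56206335-56206394, mm9). Psme1 ranged from 4.65 to 5.13 on saline in wild type, read 5.5, 5.98, 5.89 and 6.19 at 6 h and ranged from 5.41 to 5.79 at 20 h. It rose by 1.00 ± 0.23 at 6 h (adjusted p = 0.00146, 2.0-fold) and by 0.74 ± 0.21 at 20 h (adjusted p = 0.00538, 1.67-fold). Neither LPS group overlapped saline.

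Psme2 ranged from 5.44 to 6.26 on saline with a median of 5.87 and read 6.56, 7.15, 6.89 and 7.41 at 6 h. Its 20 h values, 5.69 to 6.85, overlapped saline. Psme2 rose by 1.11 ± 0.29 at 6 h (adjusted p = 0.00468, 2.16-fold), and its difference at 20 h was 0.43 ± 0.26 (adjusted p = 0.204). Scaling decides the later value: it was 0.79 under quantile normalization, 0.72 under normexp with quantile and 0.75 in the authors' deposited table, and was called under these 3.

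**Figure D1:**
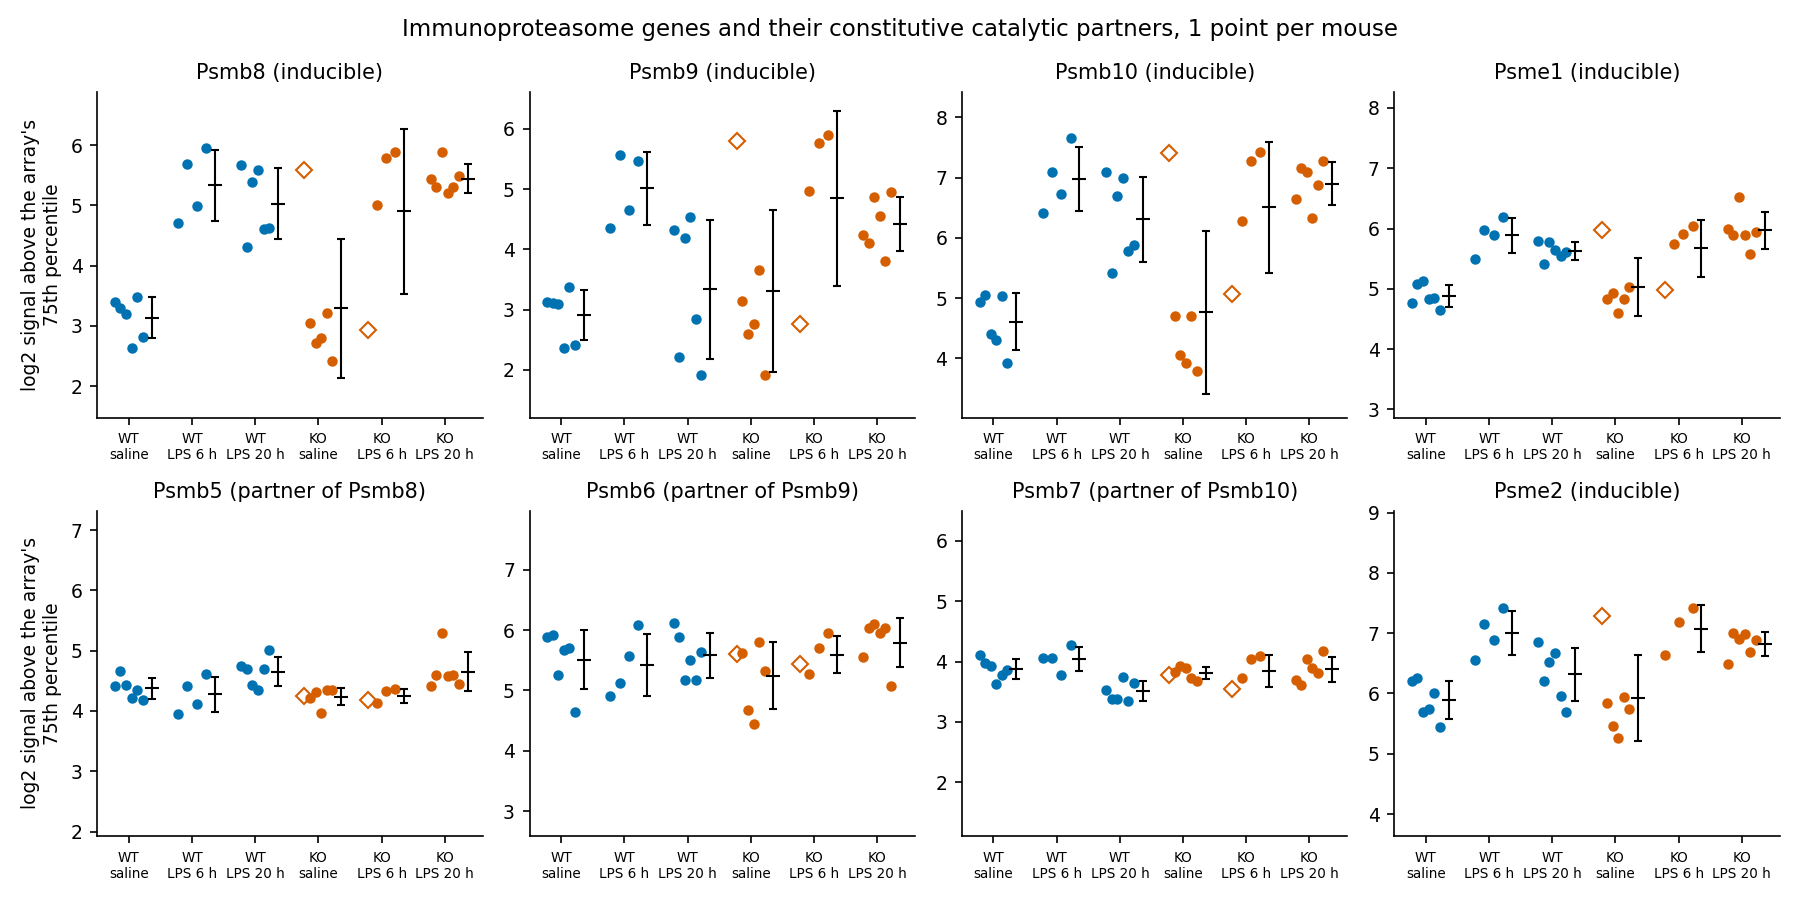
Level of the inducible genes and of the constitutive catalytic subunits in each mouse (log2 signal above the 75th percentile of the array, vertical axis) by genotype and treatment, with black bars for mean and SD and open diamonds for replicate 1 of the knockouts on saline and at 6 h; each panel spans the same number of log2 units. In wild type the 4 arrays at 6 h lie above all 6 saline arrays for Psmb8, Psmb9, Psmb10, Psme1 and Psme2, and overlap them for Psmb5, Psmb6 and Psmb7.

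In knockout liver the inducible genes were also higher after LPS, but at 6 h the number of calls differed between fits with and without the 2 libraries that stood apart. With all libraries, Psme2 was the 1 member that rose at 6 h and none fell (1.54% and 1.05% of all genes). Without both libraries, all 5 inducible genes rose, among 9 members that rose and 1 that fell (12.8% and 16.3% of all genes). The pair was singled out by these same 5 genes, so their values and p-values without it, here and below, are descriptions. At 20 h, 18 members rose and none fell with all libraries (11.6% and 14.6% of all genes), and 26 rose and none fell without them (16% and 18.9%).

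Psmb8 in knockouts ranged from 2.41 to 5.58 on saline with a median of 2.93, where the highest value is replicate 1 and the next was 3.22. The 6 h arrays read 2.93, 5.0, 5.78 and 5.89, of which the lowest is replicate 1. At 20 h all 6 arrays lay between 5.21 and 5.89. Psmb8 missed the threshold at 6 h, with a difference of 1.60 ± 0.49 (adjusted p = 0.0625). At 20 h it rose by 2.14 ± 0.44 (adjusted p = 0.000641, 4.42-fold). Without both libraries it was 2.72 ± 0.32 (adjusted p = 2.22e-07) and 2.60 ± 0.26 (adjusted p = 3.11e-08).

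Psmb10 had saline values of 3.79 to 7.40 (median 4.38), 6 h values of 5.07, 6.28, 7.27 and 7.42, and 20 h values of 6.33 to 7.27 in knockouts. Again replicate 1 was the highest saline value and the lowest 6 h value. At 6 h its difference of 1.75 ± 0.51 did not pass (adjusted p = 0.0568), and it rose by 2.13 ± 0.46 at 20 h (adjusted p = 0.00109, 4.38-fold). Without both libraries the changes were 2.75 ± 0.38 (adjusted p = 2.61e-06) and 2.66 ± 0.31 (adjusted p = 3.49e-07).

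Psmb9 in knockouts ranged from 1.92 to 5.79 on saline, read 2.76, 4.97, 5.77 and 5.90 at 6 h and ranged from 3.80 to 4.95 at 20 h. It passed the test at neither time with all libraries (1.54 ± 0.61, adjusted p = 0.133, and 1.11 ± 0.54, adjusted p = 0.133), and at both without the pair (2.73 ± 0.50, adjusted p = 0.000105, and 1.60 ± 0.41, adjusted p = 0.00329). Its 20 h arrays lay above the 5 other saline arrays, which reached 3.66.

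Psme1 read 4.98, 5.75, 5.91 and 6.05 in knockouts at 6 h against 4.60 to 5.98 on saline, a difference of 0.64 ± 0.23 (adjusted p = 0.101), and it rose by 0.94 ± 0.21 at 20 h (adjusted p = 0.00123). Psme2 lacks a value in KO LPS 6 h replicate 1, where the scanner software marked the spot as an outlier. Its remaining 6 h arrays read 6.64, 7.18 and 7.41 against 5.26 to 7.28 on saline. Psme2 rose by 1.15 ± 0.32 at 6 h on these 3 arrays (adjusted p = 0.0495) and by 0.90 ± 0.26 at 20 h (adjusted p = 0.0112). With the outlier spot kept, the 6 h value was 0.85 and did not pass, and leaving out any 1 other library of these groups (KO saline replicates 2 to 6, and replicates 2 to 4 of KO LPS 6 h) also ended the call, at 0.99 to 1.37. Without both libraries Psme1 rose by 1.06 ± 0.19 and 1.13 ± 0.16 and Psme2 by 1.42 ± 0.26 and 1.17 ± 0.22 at the 2 times (adjusted p from 4.64e-06 to 0.00013).

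No constitutive catalytic subunit rose against saline in either genotype under the scaling used here. Psmb5, the chymotrypsin-like subunit (chr14:55233161-55233220, mm9), lay between 4.18 and 4.67 on saline in wild type, read 3.95, 4.42, 4.12 and 4.61 at 6 h and ranged from 4.35 to 5.01 at 20 h. Psmb6, the caspase-like subunit (chr11:70341014-70341073, mm9), ranged from 4.65 to 5.92, read 4.91, 5.13, 5.57 and 6.08, and ranged from 5.18 to 6.12. All these groups overlapped. The differences from saline were −0.10 ± 0.18 and 0.28 ± 0.16 for Psmb5 and −0.09 ± 0.30 and 0.07 ± 0.26 for Psmb6, and none passed the test. Under quantile normalization, normexp with quantile and in the authors' deposited table, Psmb5 rose by 0.56 at 20 h in each.

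Psmb7, the trypsin-like subunit on chromosome 2, ranged from 3.62 to 4.10 on saline in wild type, read 4.06, 4.06, 3.78 and 4.27 at 6 h and ranged from 3.34 to 3.75 at 20 h. Its 20 h arrays lay below all 4 arrays at 6 h and overlapped saline. Psmb7 fell by 0.37 between saline and 20 h (SE 0.14, adjusted p = 0.0387) and by 0.54 between 6 h and 20 h (SE 0.16, adjusted p = 0.0083). The first fall was not called under 6 of 15 alternatives, with values from −0.22 to −0.42, nor without any 1 of 8 libraries (wild-type saline replicates 1, 2, 3 and 6, LPS 20 h replicates 1, 2, 3 and 5; −0.32 to −0.37), and the second was −0.22 under quantile normalization, −0.24 under normexp with quantile, −0.26 in the authors' deposited table and −0.43 under median centring, called under none of them. In knockouts the differences of the 3 subunits at 6 h were 0.01, 0.35 and 0.04, and at 20 h 0.42, 0.55 and 0.06, none of which passed (lowest adjusted p = 0.0518). At 20 h Psmb5 gained a call under 6 of 15 alternatives (0.42 to 0.48) and Psmb6 under 5 (0.49 to 0.79). Without both libraries that stood apart the values were 0.04, 0.47 and 0.14 at 6 h and 0.42, 0.62 and 0.06 at 20 h, none called.

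Set side by side on each array, inducible and constitutive genes moved apart after LPS. The median of the inducible genes minus that of the 41 constitutive genes was 0.02 ± 0.22 (SD, n = 6) in wild type on saline, 2.09 ± 0.42 (SD, n = 4) at 6 h and 0.80 ± 0.45 (SD, n = 6) at 20 h. In knockouts it was 0.26 ± 1.16 (SD, n = 6), 1.73 ± 1.17 (SD, n = 4) and 1.17 ± 0.54 (SD, n = 6). Without the library labelled replicate 1, knockouts had −0.20 ± 0.28 (SD, n = 5) on saline and 2.29 ± 0.40 (SD, n = 3) at 6 h. The 4 wild-type arrays at 6 h, from 1.65 to 2.56, lay above every wild-type array on saline (−0.27 to 0.29) and at 20 h (0.21 to 1.43). These are descriptions, with no test over the set. The later decline depends on the scaling: the median inducible change between 6 h and 20 h in wild type was −0.66 here and 0.00, −0.02 and −0.06 under quantile normalization, normexp with quantile and in the authors' deposited table.

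**Figure D2:**
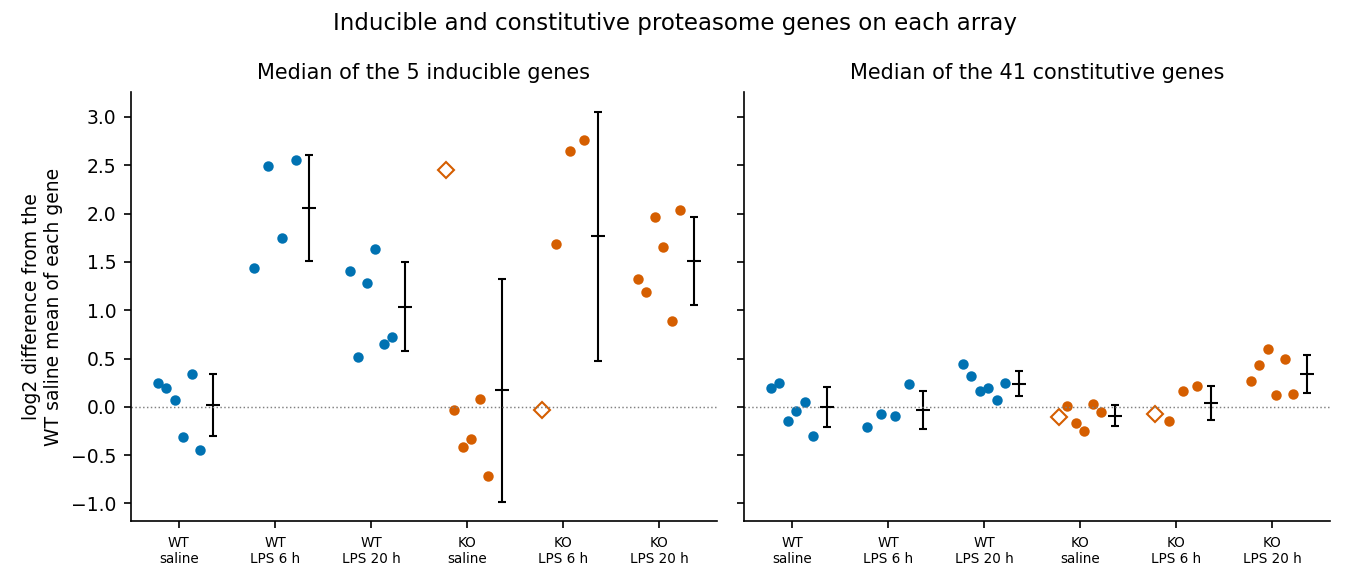
Median, on each array, of the inducible genes (left) and of the 41 constitutive genes (right), as log2 difference from the wild-type saline mean of each gene, with black bars for mean and SD and open diamonds for the 2 libraries that stood apart. Constitutive medians stay between −0.30 and 0.60 on all arrays, while inducible medians reach 2.76.

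Each inducible catalytic subunit was also compared with its own counterpart within arrays, where a factor common to the array cancels. Relative to the wild-type saline mean, Psmb8 minus Psmb5 was 2.29 ± 0.29 (SD, n = 4) at 6 h and 1.61 ± 0.74 (SD, n = 6) at 20 h in wild type. Psmb10 minus Psmb7 was 2.20 ± 0.43 (SD, n = 4) and 2.08 ± 0.64 (SD, n = 6). Psmb9 minus Psmb6 was 2.19 ± 0.58 (SD, n = 4) and then 0.36 ± 1.23 (SD, n = 6), with values at 20 h from −1.12 to 1.64. Relative to their counterparts, Psmb8 and Psmb10 were above the saline mean on every wild-type array at 20 h, with lowest differences of 0.85 and 1.31, and Psmb9 was not. In knockouts at 20 h the 3 differences were 2.02 ± 0.20, 2.29 ± 0.36 and 1.23 ± 0.73 (SD, n = 6 each, in the order Psmb8, Psmb10, Psmb9), with lowest values of 1.83, 1.70 and 0.37. On saline the 5 knockout arrays other than replicate 1 ran from −0.69 to 0.10, −0.72 to 0.24 and −0.80 to 0.92 in the same order, so that the 20 h values of Psmb9 overlapped them. At 6 h the 3 arrays other than replicate 1 ran from 2.11 to 2.76, 1.82 to 2.60 and 2.30 to 2.66, whereas replicate 1 was at −0.01, 0.80 and −0.08. The PA28 genes were set against Psme3 in the same way and read lower: Psme1 minus Psme3 was −0.86 ± 0.35 (SD, n = 4) at 6 h and −0.89 ± 0.20 (SD, n = 6) at 20 h in wild type, and Psme2 minus Psme3 was −0.75 ± 0.44 (SD, n = 4) and −1.20 ± 0.42 (SD, n = 6).

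Of 15 genes of the 20S core outside the inducible set, 2 rose and none fell in wild type at 6 h, a share near the 12.4% of all genes that rose. Psma5, an alpha subunit, ranged from 5.11 to 6.10 on saline and read 6.30, 6.68, 6.48 and 7.28 at 6 h, a rise of 1.01 ± 0.30 (adjusted p = 0.0123, 2.02-fold). Psmb2, a beta subunit without a proteolytic site, ranged from 1.48 to 2.06 and read 2.42, 2.7, 2.36 and 2.27, a rise of 0.63 ± 0.21 (adjusted p = 0.0268). Neither group overlapped saline. Psma5 kept its call under 3 of the 4 other scalings (0.86 under median centring, not called) and Psmb2 under none of them (0.46 to 0.55).

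In knockouts at 20 h, Psma5 and Psma6 rose. Psma6, another alpha subunit, ranged from 3.20 to 4.64 on saline and from 4.72 to 5.56 at 20 h, a rise of 1.03 ± 0.30 (adjusted p = 0.0119, 2.04-fold; 1.04 ± 0.33 without both libraries that stood apart). Psma5 rose by 0.81 ± 0.27 (adjusted p = 0.0276), and by 1.03 ± 0.24 without both libraries that stood apart. All 8 alpha genes had values above 0 in knockouts at 20 h (median 0.48, against −0.09 over all genes tested), and 6 of 8 did in wild type at 20 h (median 0.38, against −0.03), where none was called. Among the 8, Psma8 was dim, with a mean level of −1.65 on saline in wild type, where Psma4 came next at 3.22. Under quantile normalization, normexp with quantile and the authors' deposited table, 5 of the 8 rose in wild type at 20 h. Shares of all genes under these scalings are not given here, so this count is no result about the alpha genes alone.

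The 19S regulatory particle read lower at 6 h than at 20 h in both genotypes. In wild type at 6 h, 1 of its 17 subunits rose and 1 fell (12.4% and 16% of all genes). There, 14 had values below 0 (median −0.20, against 0.01 over all genes). None rose and 1, 4, 8 and 7 fell at 6 h under median centring, quantile normalization, normexp with quantile and in the authors' deposited table. Between 6 h and 20 h, 7 rose and 1 fell in wild type (median 0.43, with 17% of all genes rising and 17.3% falling) and 8 rose and none fell in knockouts (median 0.41, 7.29% and 8.25%). Relative to saline, 4 rose at 20 h in wild type (16.3% of all genes) and 9 in knockouts (11.6%), and none fell. Without both libraries that stood apart, 9 again rose in knockouts against saline (16% of all genes). Between 6 h and 20 h, 5 then rose and 1 fell (11.5% and 10.8%). The counts moved with the scaling, and shares of all genes under the other scalings are not given here. Under median centring, quantile normalization, normexp with quantile and the authors' deposited table, the rises at 20 h against saline numbered 2, 10, 9 and 8 in wild type and 10, 9, 8 and 9 in knockouts, and those against 6 h numbered 6, 14, 14 and 14 in wild type and 2, 12, 15 and 15 in knockouts. With no filter on dim probes they were 2 and 6 against saline and 5 and 2 against 6 h, wild type first. The medians at 20 h against 6 h were above 0 under all 4 other scalings, from 0.53 to 0.89 in wild type and from 0.41 to 0.77 in knockouts.

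Psmc4, an ATPase of the base of the particle, had the largest rise of the 19S subunits against saline in both genotypes at 20 h. In wild type it ranged from 3.87 to 4.71 on saline, read 3.86, 4.17, 3.86 and 4.58 at 6 h and ranged from 4.82 to 5.37 at 20 h, so that the 20 h arrays lay above all others. Psmc4 rose by 0.68 ± 0.18 against saline (adjusted p = 0.00407, 1.61-fold) and by 0.94 ± 0.20 against 6 h (adjusted p = 0.000637). In knockouts it ranged from 4.16 to 4.47 on saline and from 4.66 to 5.52 at 20 h, a rise of 0.84 ± 0.18 (adjusted p = 0.00117, 1.79-fold; 0.83 ± 0.18 without both libraries that stood apart).

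Psmc1 and Psmd3, named after their values were seen, moved likewise. Psmc1, an ATPase, read 4.30, 4.28, 4.37 and 4.65 at 6 h in wild type and 4.79 to 5.48 at 20 h, a rise of 0.73 ± 0.16 (adjusted p = 0.000979). Psmd3, a non-ATPase of the lid, read 5.51, 5.54, 6.03 and 6.4 and then 6.54 to 7.31, a rise of 0.95 ± 0.25 (adjusted p = 0.00446). In neither gene did the groups overlap. Psmd11, another lid subunit, fell by 0.48 between saline and 6 h in wild type (SE 0.18, adjusted p = 0.0467), where its arrays read 4.82, 4.96, 5.14 and 5.36 against 5.30 to 5.76. Psmd7 had the opposite course and is uncertain, because its brightest probe fell by 0.64 between 6 h and 20 h in wild type (adjusted p = 0.0129) while its other probes read 0.29 and 0.09.

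**Figure D3:**
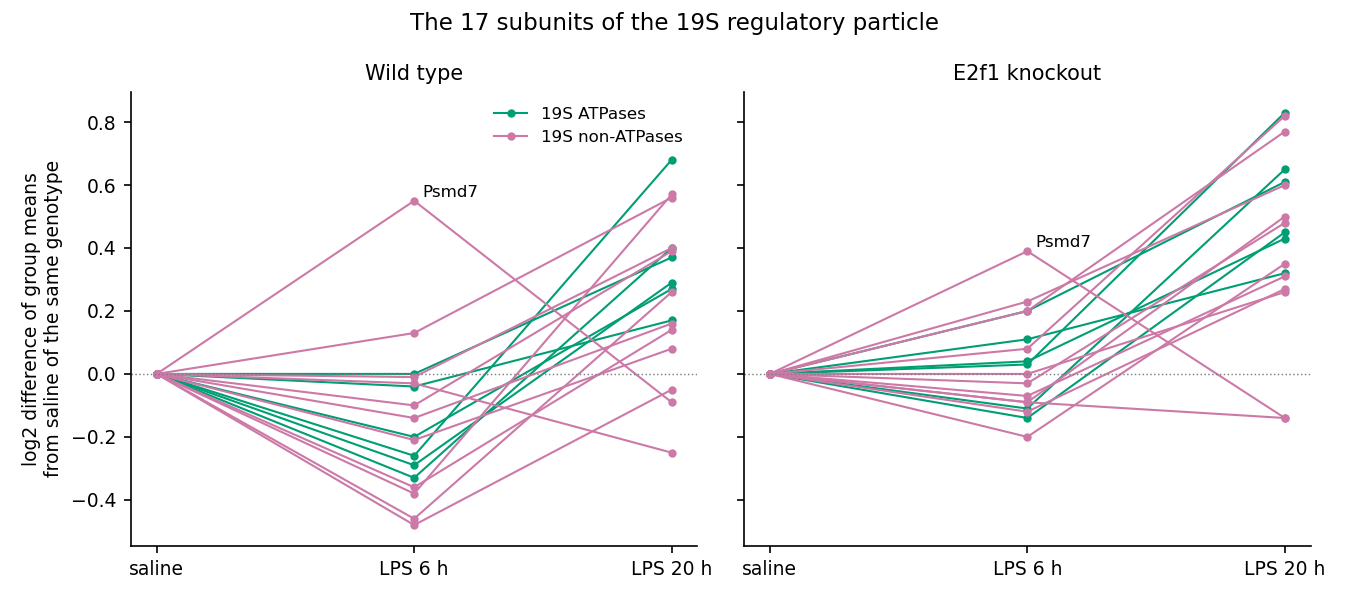
Mean log2 difference from saline of the same genotype for each of the 17 subunits of the 19S particle (ATPases green, non-ATPases pink; 1 line per gene), in wild type (left) and knockouts (right). In wild type 14 lines lie below 0 at 6 h and 14 above 0 at 20 h; Psmd7, whose probes disagree, is marked.

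Among the other activators, Psme3 and Psme4 went opposite ways in wild type at 20 h. Psme3, which encodes PA28 gamma, the nuclear relative of Psme1 and Psme2, ranged from 0.49 to 1.34 on saline, read 2.61, 3.01, 3.08 and 2.60 at 6 h and ranged from 2.44 to 2.80 at 20 h. Every LPS array lay above every saline array. Psme3 rose by 1.86 ± 0.46 after 6 h (adjusted p = 0.00301, 3.63-fold) and by 1.63 ± 0.42 after 20 h (adjusted p = 0.00276, 3.10-fold). In knockouts the differences were 0.72 (adjusted p = 0.392) and 0.95 (adjusted p = 0.089) with all libraries and, as rises past the test, 1.61 and 1.43 without the pair that stood apart. In that pair, Psme3 read 3.94 on saline and 1.04 at 6 h. At 20 h in knockouts replicate 4 read 0.85 and the other arrays read 2.51, 2.99, 2.6, 2.62 and 3.52. Replicate 4 was kept in both fits.

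Psme4, which encodes the activator PA200, ranged from 4.78 to 5.43 on saline in wild type, read 4.91, 5.21, 5.36 and 5.66 at 6 h and ranged from 4.17 to 5.15 at 20 h. At 20 h 5 of its 6 arrays were below 4.60 and replicate 2 was the highest. Psme4 fell by 0.68 against saline (SE 0.18, adjusted p = 0.00363) and by 0.82 against 6 h (SE 0.20, adjusted p = 0.002). In knockouts it fell by 0.68 between 6 h and 20 h (SE 0.20, adjusted p = 0.0195), and by 0.69 without both libraries that stood apart. That fall was called under none of the 4 other scalings (−0.29 to −0.68), and the wild-type fall against 6 h was called under median centring alone of these (−0.72, the others being −0.29 to −0.33). The fall against saline was −0.74 under median centring, called, and −0.40, −0.33 and −0.32 under quantile normalization, normexp with quantile and in the authors' deposited table, not called.

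Of 7 assembly chaperones, none rose and 2 fell in wild type at 6 h (12.4% and 16% of all genes). At 20 h 2 rose and 2 fell (16.3% and 20.2%). In knockouts none was called at 6 h (1.54% and 1.05%), and 3 rose and none fell at 20 h (11.6% and 14.6%). Psmd5, a chaperone of the 19S base, ranged from 2.07 to 2.55 on saline in wild type and read 1.27, 0.90, 0.97 and 1.03 at 6 h, then 1.34 to 2.63 at 20 h. It fell by 1.22 at 6 h (SE 0.28, adjusted p = 0.00134) and rose by 1.05 ± 0.28 between 6 h and 20 h (adjusted p = 0.00385). In knockouts it was lower by 0.89 at 6 h without passing (log2 −0.89 ± 0.28, adjusted p = 0.0669), and it rose by 0.86 ± 0.28 between 6 h and 20 h (adjusted p = 0.0329; 0.80 and not called under normexp with quantile). Without both libraries Psmd5 fell by 1.29 in knockouts at 6 h (SE 0.26, adjusted p = 0.000334).

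Psmg3, a chaperone of the alpha ring, ranged from 2.21 to 3.04 on saline in wild type and read 1.09, 1.16, 2.13 and 1.74 at 6 h. It fell by 1.23 (SE 0.24, adjusted p = 0.000337) without overlap with saline. In knockouts its 6 h arrays, at 2.87, 2.17, 2.06 and 2.4, lay within the saline range of 1.96 to 3.05. Psmg1 and Psmg2, which pair in the first steps of alpha-ring assembly, fell by 0.71 and 0.72 in wild type at 20 h (adjusted p = 0.0172 and 0.0174), with ranges of 0.70 to 2.28 and 0.37 to 2.13 that overlapped saline.

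Psmd10, the base chaperone also known as gankyrin, rose at 20 h in both genotypes, by 0.89 ± 0.29 in wild type (adjusted p = 0.0172) and 1.16 ± 0.29 in knockouts (adjusted p = 0.00409; 1.33 ± 0.29 without both libraries that stood apart). Its wild-type range was 0.66 to 1.48 on saline and 1.08 to 2.71 at 20 h, with overlap. Psmd9, another base chaperone, named after its values were seen, ranged from 1.68 to 1.85 on saline and from 2.03 to 2.31 at 20 h in wild type and rose by 0.42 ± 0.12 (adjusted p = 0.0081), although its probes differ in sign. Psmc3ip, the recombination factor, stood at −4.0 to −2.87 on saline and −3.20 to −2.34 at 20 h in wild type, a rise of 0.69 ± 0.27 (adjusted p = 0.0477) that no other scaling called.

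**Figure D4:**
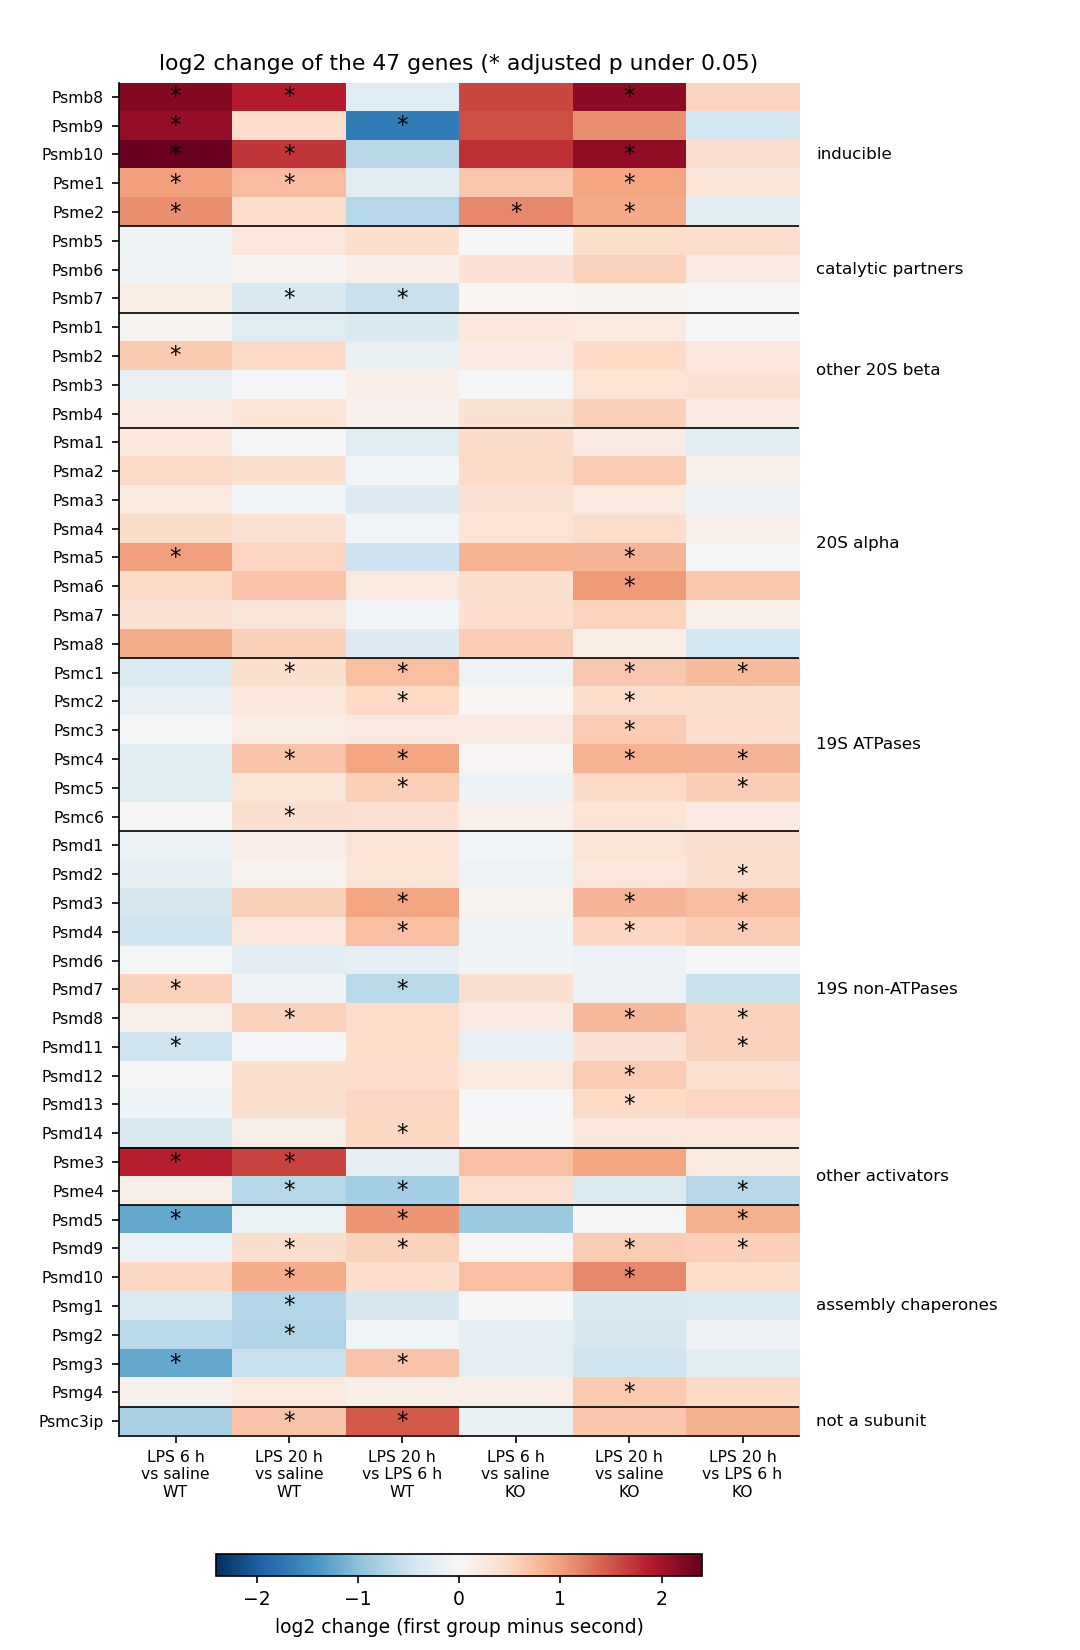
Log2 change of all 47 members (rows, by class) in 6 comparisons (columns), on a colour scale from blue (lower) to red (higher); a star marks an adjusted p under 0.05. The inducible genes carry 5 stars in wild type at 6 h and the 19S rows carry theirs mainly in the columns with 20 h.

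Over all 47 members, 11 rose and 4 fell in wild type at 20 h against saline, where 16.3% of all genes rose and 20.2% fell. Arrays did not overlap saline for 9 members higher and 4 lower at 6 h (11.7% and 15.9% of all genes) and for 7 higher and none lower at 20 h (9.24% and 13%). In knockouts the corresponding counts were 0 and 0 at 6 h (0.406% and 0.484%) and 6 and 0 at 20 h (1.51% and 2.35%). Without both libraries that stood apart they were 11 and 3 at 6 h (15.3% and 20.9%) and 16 and 0 at 20 h (6.65% and 6.57%). Between 6 h and 20 h, 11 members rose and 4 fell in wild type (17% and 17.3%) and 10 rose and 1 fell in knockouts (7.29% and 8.25%). The last count rests on single libraries: the 11 calls became 6, 3 and 4 without KO LPS 6 h replicate 2, 3 or 4, and 7, 4 and 5 without KO LPS 20 h replicate 1, 3 or 5. Shares of all genes with 1 library left out are not given here. Without both libraries that stood apart, 8 rose and 2 fell (11.5% and 10.8% of all genes).

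How the arrays were scaled changed the balance of rises and falls over all members. Some calls within the inducible set moved as well, as given above for Psme2 against saline at 20 h and for Psmb9 between 6 h and 20 h in wild type. In wild type at 6 h the members that rose and fell numbered 9 and 3 here, 6 and 5 under median centring, 7 and 7 under quantile normalization, 7 and 12 under normexp with quantile and 7 and 11 in the authors' deposited table. All 5 inducible genes rose in each of them. At 20 h the counts were 11 and 4 here, 7 and 3 under median centring, and 25 and 2, 23 and 4, and 23 and 4 under the remaining scalings in the same order. Between 6 h and 20 h in wild type they were 11 and 4, 10 and 1, 23 and 0, 23 and 0, and 24 and 0. For knockouts at 20 h against saline they were 18 and 0, 22 and 0, 24 and 0, 22 and 1, and 23 and 1, and against 6 h 10 and 1, 4 and 0, 19 and 0, 22 and 0, and 27 and 0. These scalings shifted the median of all genes relative to the one used here by −0.16 to −0.09 at 6 h and by 0.10 to 0.19 between 6 h and 20 h in wild type. Shares of all genes called under them are not given here.

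**Figure D5:**
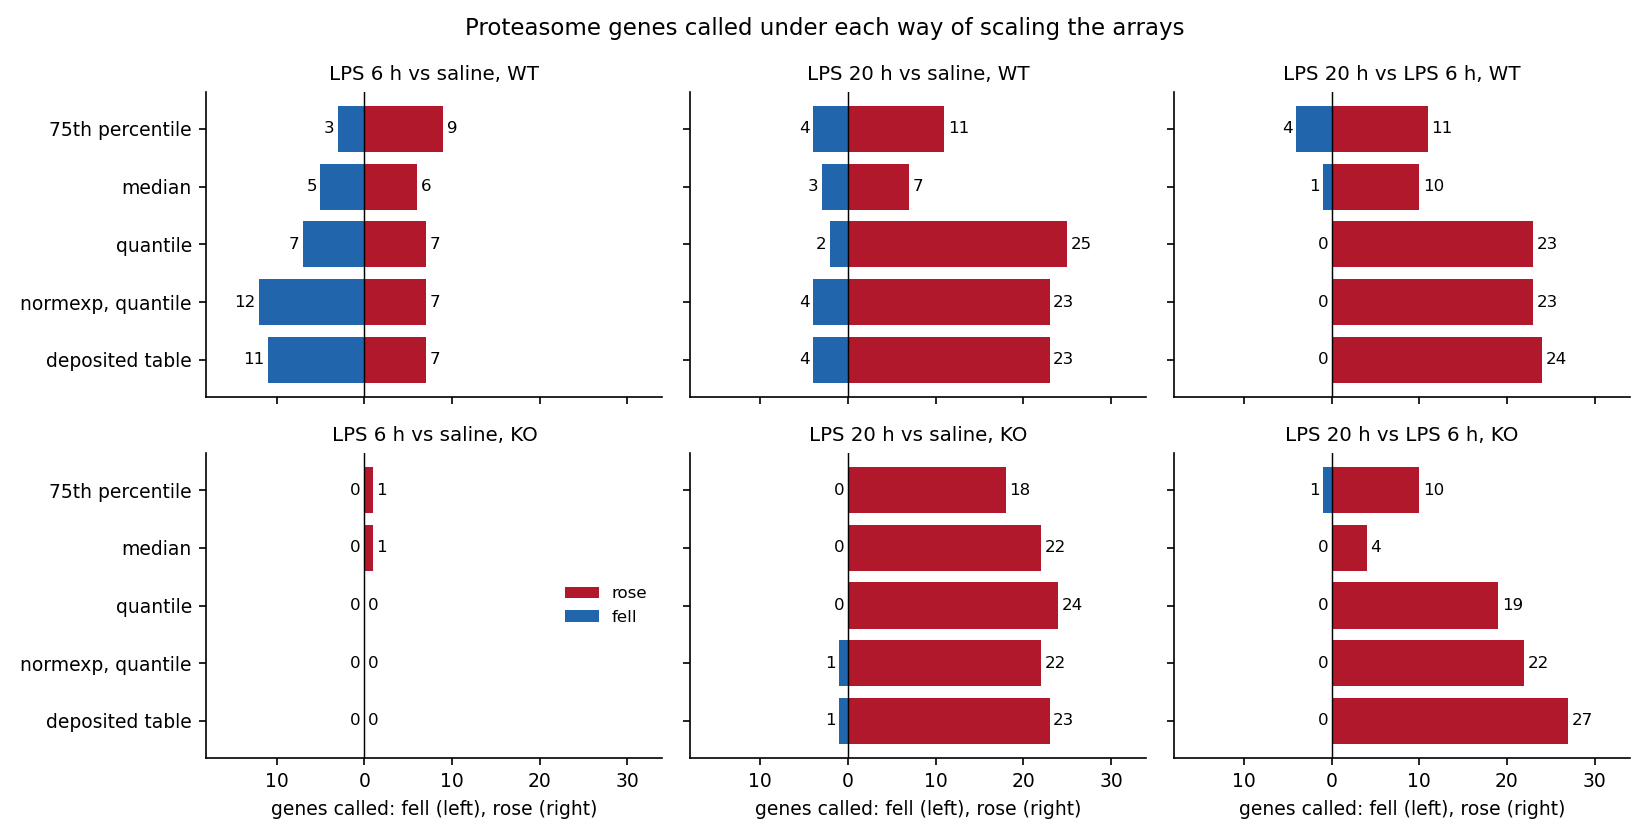
Number of the 47 genes that rose (red, to the right) and fell (blue, to the left) at an adjusted p under 0.05 in 6 comparisons (panels) under 5 ways of scaling the arrays (rows). In wild type at 6 h the falls range from 3 to 12; at 20 h against 6 h the rises range from 10 to 24.

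The file headers show 9 slides and 3 scan dates as possible batches, and the third date holds no wild type on saline. Within each of the other dates the inducible median in wild type was 2.04 and 2.26 at 6 h and 0.77 and 1.23 at 20 h, with all 5 genes above 0. In knockouts at 6 h it was 2.36, 2.43 and −0.93, the last on the date of the 2 libraries that stood apart, and at 20 h it was 2.30, 0.94 and 0.68. The 19S median between 6 h and 20 h was 0.49, 0.20 and 0.51 in wild type and 0.66, 0.21 and 0.43 in knockouts.

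Knockouts and wild types did not differ past the threshold in any member on saline, at 6 h or at 20 h, by limma, where 0.338%, 1.23% and 0.322% of all genes did. At an unadjusted p under 0.05 the counts were 0, 1 and 1 of 47. These were Psmg3 at 6 h, higher in knockouts by 0.84 ± 0.27 (adjusted p = 0.127 by limma), and Psmb7 at 20 h, higher by 0.37 ± 0.14 (adjusted p = 0.448 by limma). At 20 h Psmb9 was 1.08 ± 0.54 higher in knockouts (adjusted p = 0.68), the ranges being 3.80 to 4.95 and 1.92 to 4.54. The other inducible genes differed by 0.34 to 0.58 at 20 h, by −0.46 to 0.07 at 6 h and by 0.03 to 0.16 on saline, with standard errors of 0.21 to 0.56. Without both libraries that stood apart, the signs of most of the earlier values turned: the 5 inducible genes ran from −0.37 to −0.04 on saline and from 0.02 to 0.53 at 6 h. Again no member was called in these 3 comparisons (lowest adjusted p = 0.268 by limma), with 0, 1 and 4 of 47 at an unadjusted p under 0.05. The number of arrays limits the precision of these values.

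The genotypes' responses to LPS were compared directly as an interaction, which was called for no member at 6 h or 20 h (0.14% and 0.0416% of all genes, by limma), with 1 of 47 at an unadjusted p under 0.05 each time. Among the inducible genes the interaction at 6 h ran from −0.62 ± 0.73 in Psmb10 to 0.04 ± 0.43 in Psme2, and at 20 h from 0.20 ± 0.29 in Psme1 to 0.68 ± 0.77 in Psmb9. Psme3 had −1.14 ± 0.66 at 6 h (adjusted p = 0.649), and −0.25 ± 0.46 without both libraries that stood apart. Leaving out both libraries also gave no interaction call, with 1 member at 6 h and 5 at 20 h at an unadjusted p under 0.05. The lowest adjusted p over the 47 members was then 0.456 at 6 h and 0.517 at 20 h by limma. The inducible interactions ran from 0.06 to 0.63 at 6 h (median 0.39, against −0.56 with these libraries) and from 0.39 to 1.17 at 20 h. Calls made in wild type and not in knockouts are therefore not shown to differ between the genotypes.

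Other genes of the class I peptide pathway, into which immunoproteasome products feed, were given by a list, of which 14 of 14 were tested. In wild type 7 rose and 2 fell at 6 h (median 0.84) and 7 rose and 1 fell at 20 h (median 0.60), where 12.4% and 16% of all genes rose and fell at 6 h and 16.3% and 20.2% at 20 h. The largest rises at 6 h were in Tap1, a subunit of the peptide transporter (3.15 ± 0.69, adjusted p = 0.00091), Tapbpl (2.14 ± 0.50, adjusted p = 0.00174) and Tapbp, which encodes tapasin (1.59 ± 0.37, adjusted p = 0.00148). Tap1, whose promoter is the one shared with Psmb9, rose by 1.66 ± 0.62 at 20 h (adjusted p = 0.0338). Lap3, a cytosolic aminopeptidase, fell by 1.58 at 20 h (SE 0.19, adjusted p = 4.52e-07). In knockouts none was called at 6 h (1.54% of all genes rose and 1.05% fell). At 20 h 7 rose and 1 fell (11.6% and 14.6%). Without both libraries 7 rose and none fell in knockouts at 6 h (12.8% and 16.3%). At 20 h 8 then rose and 1 fell (16% and 18.9%).

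Of 14 regulators of subunit transcription, 13 were tested. In wild type 1 rose and 1 fell at 20 h (16.3% and 20.2% of all genes). At 6 h 7 rose and 1 fell (median 1.20, with 12.4% and 16% of all genes). Maff rose by 3.12 ± 0.94 (adjusted p = 0.0124), Irf8 by 2.76 ± 0.58 (adjusted p = 0.000658) and Irf1, an interferon regulatory factor known to act on Psmb9 and Tap1, by 2.33 ± 0.54 (adjusted p = 0.00174). Mafg fell by 1.35 (SE 0.30, adjusted p = 0.00113). At 20 h the difference of Irf1 from saline was 0.54 ± 0.49 (adjusted p = 0.409), and Nfe2l1, a known regulator of constitutive subunit genes, had 0.25 ± 0.19 and 0.19 ± 0.17 at the 2 times without passing. Nfe2l2 fell at 20 h, with −1.01 ± 0.36 in wild type (adjusted p = 0.0295 by limma) and −1.75 ± 0.36 in knockouts (adjusted p = 0.000777 by limma). In knockouts 2 rose at 6 h, or 8 with 1 fall without both libraries, and 1 rose and 1 fell at 20 h, or 4 and 1 without them. Among all genes in knockouts, 1.54% rose and 1.05% fell at 6 h, or 12.8% and 16.3% without both libraries. At 20 h the shares were 11.6% and 14.6%, or 16% and 18.9% without them.

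Assembly and associated factors (19 of 20 tested) gave 1 rise and 1 fall in wild type at 6 h and 4 rises and 2 falls at 20 h, with medians of 0.00 and 0.07. Those shares are near or below those of all genes (12.4% and 16% at 6 h, 16.3% and 20.2% at 20 h). Ufd1l rose by 0.87 ± 0.18 at 20 h (adjusted p = 0.000478). In knockouts none was called at 6 h, and 5 rose and 2 fell at 20 h. Without both libraries 2 fell at 6 h, and 4 rose and 3 fell at 20 h. Of ubiquitin genes and E1 enzymes (9 of 10 tested), 3 rose and 1 fell in wild type at 6 h and 3 rose at 20 h. Those that rose at both times were the ubiquitin-like modifiers Ubd (6.17 ± 1.12 and 6.60 ± 1.00) and Isg15 (5.57 ± 1.15 and 3.20 ± 1.03) and Ube1l, the E1 enzyme for ISG15 (2.23 ± 0.48 and 1.37 ± 0.43). In knockouts 1 rose at 6 h, or 3 without both libraries, and 3 rose and 1 fell at 20 h, or 4 and 1 without them. Shares of all genes in knockouts were 1.54% rising and 1.05% falling at 6 h and 11.6% and 14.6% at 20 h. Without both libraries they were 12.8% and 16.3% at 6 h and 16% and 18.9% at 20 h.

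Markers of cell types also changed after LPS, in directions that differed between the types. Among all genes, 12.4% rose and 16% fell in wild type at 6 h, and 16.3% and 20.2% at 20 h. In knockouts the shares were 1.54% and 1.05% at 6 h and 11.6% and 14.6% at 20 h. All 5 neutrophil markers tested rose in each LPS comparison (medians of 4.64 to 5.08), and their summed level in wild type was −0.30 to 3.15 on saline, 5.74 to 6.56 at 6 h and 5.71 to 7.02 at 20 h. Of 6 T and NK cell markers 2 rose in wild type at 6 h and 2 at 20 h, with summed levels of −0.61 to −0.26 on saline, 1.24 to 2.74 and 0.28 to 1.09. Of 6 Kupffer cell and macrophage markers 1 rose and 1 fell at 6 h and 1 rose and 4 fell at 20 h in wild type, and 4 of 5 B cell markers fell at 20 h. General leukocyte markers rose in 2 of 5 at each time, and of 5 dendritic cell markers 1 rose at 6 h and 1 fell at 20 h. None of 4 hepatocyte markers was called at 6 h, and 3 fell at 20 h in each genotype (medians −1.78 in wild type and −1.37 in knockouts). Of the 3 lung epithelial markers tested, the surfactant protein genes Sftpa1 and Sftpd rose in wild type, by 1.90 ± 0.65 and 2.93 ± 0.75 at 6 h and by 4.52 ± 0.59 and 3.07 ± 0.67 at 20 h, and in knockouts at 20 h, by 1.70 ± 0.59 and 2.19 ± 0.67. No marker tested was below background on every array of a group. Their part in the proteasome results was not tested.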

How the data were processed

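Liver RNA of 32 mice was measured on 1-colour Agilent 4x44K arrays, 1 per mouse, over 9 slides and 3 scan dates. The deposited intensity values are processed signals, background-subtracted by Feature Extraction 10.7.1.1, per the file headers. They were put on the log2 scale minus the 75th percentile of each array, without control and outlier spots (84 to 232 per array). No spot was flagged as saturated. The authors' deposited table of log2 values (23916 probes) correlated at 0.98 to 0.991 with the arrays of the same name and was used as an alternative. Its column medians were 8.8 to 8.91, and its normalization is not stated in the labels.

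The 28373 probes that Feature Extraction flagged as well above background in 4 arrays or more entered, and the brightest stood for its gene name. limma 3.58.1 (R 4.3.3) fitted 6 group means over 32 arrays and moderated tests for 11 comparisons, adjusted by Benjamini-Hochberg over 19226 genes, two-sided. The fit was checked on simulated data. Alternatives were other scalings, filters, probe choices, blocks, array weights, a trended variance, fewer groups and left-out libraries. No pair of arrays was identical, and the highest correlation between 2 arrays was 0.98419. No protein sequences were used.

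The genes and lists were chosen with earlier results of these data known. In full are named the inducible genes and their 3 catalytic partners, then the 3 largest called rises and falls per LPS comparison with saline, and up to 3 called genes per pathway list. Positions of probes come from the array's design (mm9), and promoter windows are from RefSeq (GRCm38.p6), matched by symbol for 39 of 47 genes.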

Additional observations from a re-analysis of the deposited data

Results flagged for a closer look

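In 12 of 125 combinations of a named gene (21 genes) and a group of 4 to 6 mice, the highest or lowest array lay apart from the rest by Dixon's criterion, where chance gives about 1 in 20. Of these, 6 belong to the library labelled KO saline replicate 1. It read 5.58 for Psmb8 (2.41 to 3.22 in the other 5 mice), 7.4 for Psmb10 (3.79 to 4.71), 5.98 for Psme1 (4.6 to 5.03), 7.28 for Psme2 (5.26 to 5.94) and 3.94 for Psme3 (0.66 to 1.64). It read low, at 1.44, for Psmg2 (1.93 to 2.19).

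The other 6 fall on 6 different libraries. Psmb5 read 5.3 in KO LPS 20 h replicate 3 (4.41 to 4.6 in the others) and 3.96 in KO saline replicate 4 (4.22 to 4.35). Psma5 read 5.9 in KO LPS 20 h replicate 4 (6.52 to 6.74), and Psma6 read 2.41 in wild-type saline replicate 3 (4.03 to 4.96). Psme4 read 5.15 in wild-type LPS 20 h replicate 2 (4.17 to 4.53). Psmc3ip read −4.13 in KO LPS 20 h replicate 6 (−3.01 to −2.37).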

How the results depend on the processing

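Counts of the 47 genes called moved by over 1.5 times under some of 15 alternatives, and the cause was not tested. In wild type at 6 h, 12 became 19 under normexp with quantile. In wild type at 20 h, 15 became 27 under quantile normalization, 27 under normexp with quantile and 27 in the authors' deposited table. Between 6 h and 20 h in wild type, 15 became 23, 23 and 24 in the same order. In knockouts at 6 h, the single call became 0 with no filter, the mean over probes, quantile normalization, normexp with quantile, the deposited table, outlier spots kept, slide as a block, the replicate block or only the groups compared. It became 2 with the stricter filter of 12 arrays, scan date as a block or a trended robust variance, 18 with array weights and 10 without the 2 libraries that stood apart. Among all genes, 1.54% rose and 1.05% fell there with all libraries, and 12.8% and 16.3% without the 2. In knockouts at 20 h, 18 became 33 with array weights and 11 with only the groups compared. Between 6 h and 20 h in knockouts, 11 became 4 with no filter, 4 under median centring, 19, 22 and 27 under quantile normalization, normexp with quantile and the deposited table, 5 with the replicate block, 17 with array weights and 0 with only the groups compared (limma). Comparisons of the genotypes and interactions gave 0 calls under every alternative. Shares of all genes under the other alternatives are not given here, so the moves in these counts are not shown to be particular to the 47 genes.

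Leaving out 1 library at a time gave 9 to 14 calls in wild type at 6 h, 11 to 16 at 20 h and 10 to 17 between the 2 times. In knockouts it gave 0 to 9, 14 to 26 and 3 to 12. The upper end at 6 h, 9, came without KO saline replicate 1, and 8 came without KO LPS 6 h replicate 1. Shares of all genes with 1 library left out are not given here either.

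The numbers of the labels were not taken as pairing the mice: of 72 pairs of arrays with the same number, 25 correlated over 0.1 (median 0.0123, against −0.0124 for different numbers), and 2 arrays correlated best with one of their own number. Counts with the replicate block are those above.

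Of 480 values of single genes under alternatives, 18 changed sign, 16 lost a call and 30 gained one. All 5 inducible genes at 6 h in wild type, and Psmb8, Psmb10 and Psme1 at 20 h in both genotypes, kept direction and call under all 15. Sign changes were confined to the uncalled differences of the catalytic partners. In wild type at 6 h, Psmb5 was 0.09 with slide as a block and −0.21 to 0.01 without 1 library, Psmb6 was 0.49 with slide and 0.06 with scan date as a block and −0.31 to 0.08 without 1 library, and Psmb7 was −0.01, −0.12 and −0.10 under quantile normalization, normexp with quantile and the deposited table. Psmb6 at 20 h in wild type was −0.15 with array weights and −0.10 to 0.15 without 1 library. In knockouts at 6 h, Psmb5 was −0.22, −0.23 and −0.25 under those 3 scalings, −0.02 with slide and 0.00 with scan date as a block, and −0.04 to 0.05 without 1 library. Psmb7 was −0.18, −0.25 and −0.28 under the same scalings and −0.04 to 0.15 without 1 library, and at 20 h −0.05, −0.05 and −0.01 under normexp with quantile, the deposited table and array weights. Of the 47 genes, 46 were above background on every array, and the part of array brightness in these values was not tested.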
